A study of Mus musculus with 6 samples.

Results

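Translation initiation factors are the proteins that load a ribosome onto a messenger RNA and set it on the start codon. Their genes were taken as every protein-coding mouse gene whose symbol in GENCODE M21 (GRCm38, the assembly also called mm10) begins with Eif and a digit from 1 to 6, without Eif2s1 and the Eif2ak genes, which are not analysed here. This gave 50 genes out of 54232 gene IDs in the count files, and they were placed in 10 factor groups by the step they serve. The rule reads symbols and gene types alone.

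The cells came from fetal livers of C57/B6 mice at E13.5 and were purified as negative for Ter-119, which marks maturing red cells. There were 3 libraries of the freshly purified cells (day 0, no treatment) and 3 libraries made after 30 h of culture with erythropoietin (EPO), on which red cell precursors depend. For the last 6 h of culture, from 24 h on, DMSO was present, the vehicle of the caspase inhibitor Z-VAD-FMK, whose own libraries are not used here. The labels name both groups progenitor cells and do not give separate animals or cultures for the replicates, so each p-value reflects the spread among these samples alone, and that spread may be technical.

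In initiation, the small ribosomal subunit first binds eIF1, eIF1A, eIF3, eIF5 and a complex of eIF2 with GTP and the initiator tRNA. The cap-binding complex eIF4F, made of the cap binder eIF4E, the scaffold eIF4G and the helicase eIF4A, then brings in the messenger RNA. After start codon recognition eIF2 leaves with GDP and is recharged by eIF2B, while eIF5B joins the large subunit, which eIF6 otherwise holds apart. The binding proteins encoded by the Eif4ebp genes hold eIF4E back. In red cell precursors most of the protein made is globin.

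Library totals were between 19241780 and 29949173 counts. Levels are counts per 1000000 counts (CPM) scaled by TMM, a method that sets library sizes so that most genes show little change. Values given as sets of 3 follow replicates 1, 2 and 3, means are ± SD with n = 3, and log2 changes are 30 h minus day 0. Markers of red cells went from a summed level of 710 to 740 CPM at day 0 to between 9211 and 12846 CPM at 30 h, with 6 of 6 genes higher. Markers of hepatoblasts fell from 13259 to 15013 CPM to between 771 and 2231 CPM, those of mesenchyme from 1069 to 1377 CPM to between 11.1 and 26.9 CPM, and those of endothelium from 168 to 194 CPM to between 30.3 and 38.4 CPM. All 6 genes of each of these 3 lists were lower, none was at 0, and their part in the results on initiation factors was not tested. Macrophage markers went from 128 to 142 CPM to between 143 and 213 CPM (3 of 6 higher, 1 lower) and megakaryocyte markers from 551 to 654 CPM to between 582 and 918 CPM (1 of 6 higher, 4 lower). In such bulk samples fewer cells of a type and less RNA per cell cannot be told apart.

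The 30 h replicates also differed from each other along transcript length. Over 14363 protein-coding genes, the log2 ratio of 30 h replicate 3 to 30 h replicate 1 had a Spearman correlation of -0.41 with summed exon length, and over the 48 initiation factor genes tested it was -0.33. These are descriptions across genes, which are not independent replicates and share the same libraries. The values of Eif3a, Eif3b and Eif4g1, which have 8731, 3346 and 7301 bases of exon, are given below for each 30 h library.

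Sequences are shown first for paralogues whose calls differed. Eif5a2 rose more than any other initiation factor gene while its paralogue Eif5a did not pass the test, and Eif4a2 rose while its paralogue Eif4a1 did not. The first 90 bases of the coding sequences of Eif5a2 (chromosome 3) and Eif5a (chromosome 11), from GENCODE M21 transcripts, are given with the bases that differ in capitals. They differ at 25 positions, and over the aligned coding sequences identity was 73.2%.
Eif5a2: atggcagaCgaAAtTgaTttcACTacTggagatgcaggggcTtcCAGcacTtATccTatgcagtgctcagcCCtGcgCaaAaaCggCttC
Eif5a: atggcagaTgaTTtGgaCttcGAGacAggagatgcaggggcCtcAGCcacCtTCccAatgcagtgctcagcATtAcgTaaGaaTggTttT

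Promoter windows from RefSeq (GRCm38.p6, 250 bases before to 50 after each start) were matched for 38 of the 50 genes. The letters CACGTG, an E-box recognised by MYC and related factors and the same on both strands, stood in the windows of 10 of these 38 genes (26.3%), against 7.17% of 32544 windows of all genes. Of the 10 genes, 2 rose (Eif3k, Eif5a2), 2 fell (Eif3a, Eif4a1) and 6 did not pass the test (Eif1b, Eif3f, Eif4e, Eif4g1, Eif4h, Eif5a). Of all 38 genes with a window, 12 rose, 8 fell and 18 did not pass. The letters CCGCCC, counted on both strands, were in 30 of the 38 genes (78.9%, against 35.9% of all windows). Of these 30 genes, 10 rose, 8 fell and 12 did not pass. GATAA, the core bound by GATA factors, counted on both strands, was in 3 (Eif2b5, Eif3c and Eif3l, 7.89%, against 25.3%). Of these 3 genes, 0 rose, 1 fell and 2 did not pass. For each motif a gene was counted if any of its windows held the letters, while the share for all genes counts single windows. The 2 shares therefore differ in unit and are not directly comparable. A match of letters is a description of the window and shows no binding. The 200 bases before the start are given for Eif5a2 and Eif3k, which rose and hold the E-box, and for Eif4a1 and Eif4a2, with CACGTG in capitals.
Eif5a2, chr3:28781077-28781276, plus strand: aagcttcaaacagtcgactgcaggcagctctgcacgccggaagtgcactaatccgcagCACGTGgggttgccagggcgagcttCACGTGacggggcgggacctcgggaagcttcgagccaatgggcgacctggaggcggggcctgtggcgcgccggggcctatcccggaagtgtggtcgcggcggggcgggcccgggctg
Eif3k, chr7:28981889-28982088, minus strand: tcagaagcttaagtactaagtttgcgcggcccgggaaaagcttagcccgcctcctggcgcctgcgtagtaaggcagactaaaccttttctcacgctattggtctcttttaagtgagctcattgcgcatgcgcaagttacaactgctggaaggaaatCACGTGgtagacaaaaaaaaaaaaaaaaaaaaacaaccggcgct
Eif4a1, chr11:69672424-69672623, minus strand: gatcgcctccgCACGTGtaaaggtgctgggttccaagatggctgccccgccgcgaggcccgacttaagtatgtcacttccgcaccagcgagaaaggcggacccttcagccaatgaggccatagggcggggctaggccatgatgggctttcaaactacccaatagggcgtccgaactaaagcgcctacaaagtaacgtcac
Eif4a2, chr16:23107268-23107467, plus strand: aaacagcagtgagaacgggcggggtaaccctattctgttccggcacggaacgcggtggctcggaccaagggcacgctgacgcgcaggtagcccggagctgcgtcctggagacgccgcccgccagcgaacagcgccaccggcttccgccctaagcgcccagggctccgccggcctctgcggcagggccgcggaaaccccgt

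Initiation factor genes changed in both directions, and 4 of the 10 factor groups held both higher and lower genes. The largest rises were those of Eif5a2 (5.16-fold), Eif1 (3.28-fold), Eif4a2 (2.68-fold), Eif3h (2.66-fold) and Eif2s3y (2.55-fold), and the largest falls those of Eif3b (2.72-fold), Eif4ebp2 (1.98-fold), Eif2b1 (1.98-fold) and Eif1a (1.94-fold). The test was made for 48 genes, of which 16 rose, 11 fell and 21 did not pass (edgeR quasi-likelihood test, threshold 0.05 on the Benjamini-Hochberg adjusted p). Eif4e1b had 0 counts in all 6 libraries, which allows a level of at most 0.0848 to 0.189 CPM per library (3 counts), and Eif4ebp3 had 0 to 4 counts, so neither was tested. Over all 16150 genes tested, 34.4% were higher and 40.1% lower, against 33.3% and 22.9% of the initiation factor genes. Those shares are close for rises and smaller for falls. The call itself was reached by 74.5% of all genes and by 56.2% of the initiation factor genes.

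The groups did not overlap for 37 of the 48 genes, against 79.7% of all genes. The median log2 change was 0.07 for the initiation factor genes and -0.09 for all genes. With library totals as the only scaling, these medians were -0.42 and -0.58, and 12 initiation factor genes were higher and 29 lower, against 22.3% and 54.4% of all genes in that setting. The directions below therefore hold relative to TMM scaling, and the exceptions are named. In the test against a 1.5-fold change 12 initiation factor genes were higher and 5 lower (23.6% and 30.2% of all genes), and without 30 h replicate 3 these numbers were 19 and 15 (37.0% and 41.7% of all genes). Of the 16 higher genes, 12 were called higher under each of the 4 other scalings, and of the 11 lower genes 10 were called lower. No such count was made over all genes. As a share of all counts, the 50 genes together held 1.83% ± 0.0176 at day 0 and 1.37% ± 0.0450 at 30 h (two-sided exact permutation test, p = 0.1, the smallest that 3 against 3 can give). In TMM-scaled CPM their sum was 15456 ± 130 and 16234 ± 630.

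**Figure D1:**
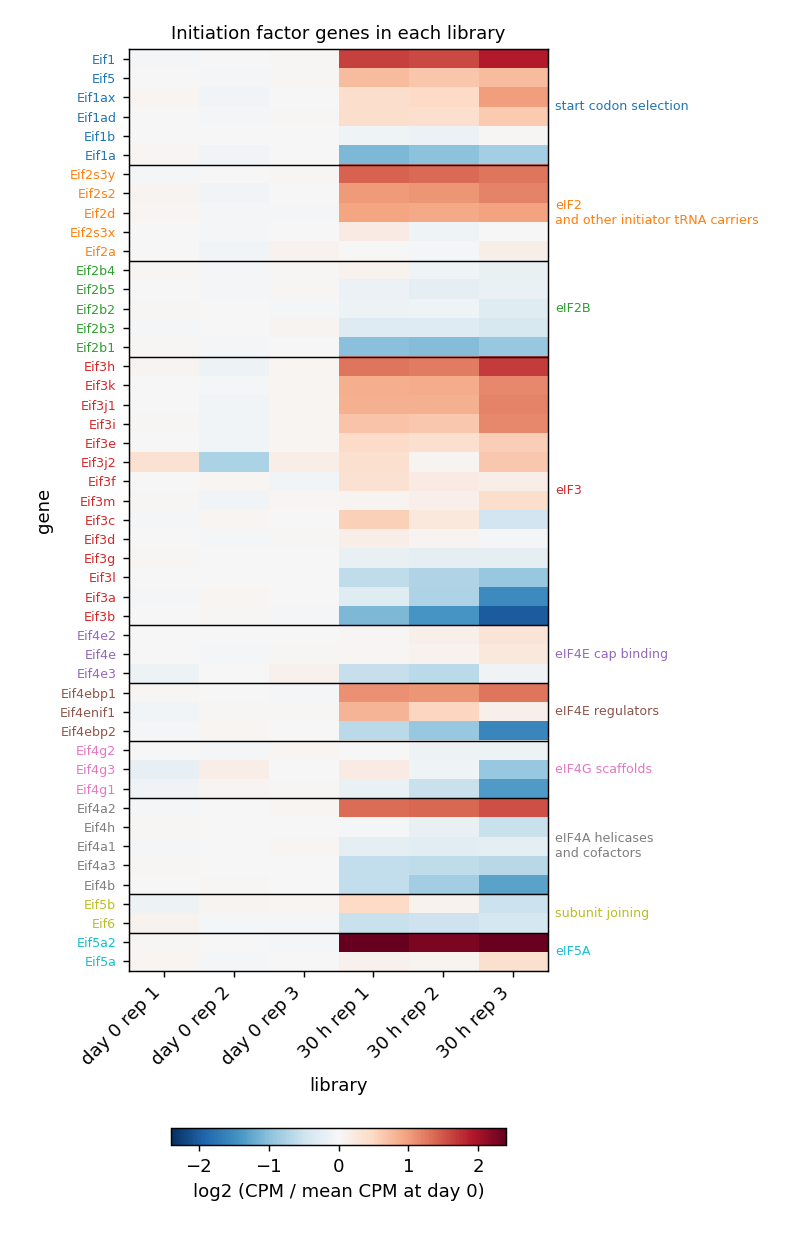
Heat map of the 48 tested genes (rows, by factor group) in the 6 libraries (columns), as the log2 ratio of CPM to the gene's mean at day 0. Rises and falls stand side by side in start codon selection, eIF3, the eIF4E regulators and the eIF4A group, and Eif5a2 is the darkest row, at 75.8 to 86.7 CPM in the 30 h libraries.

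**Figure D2:**
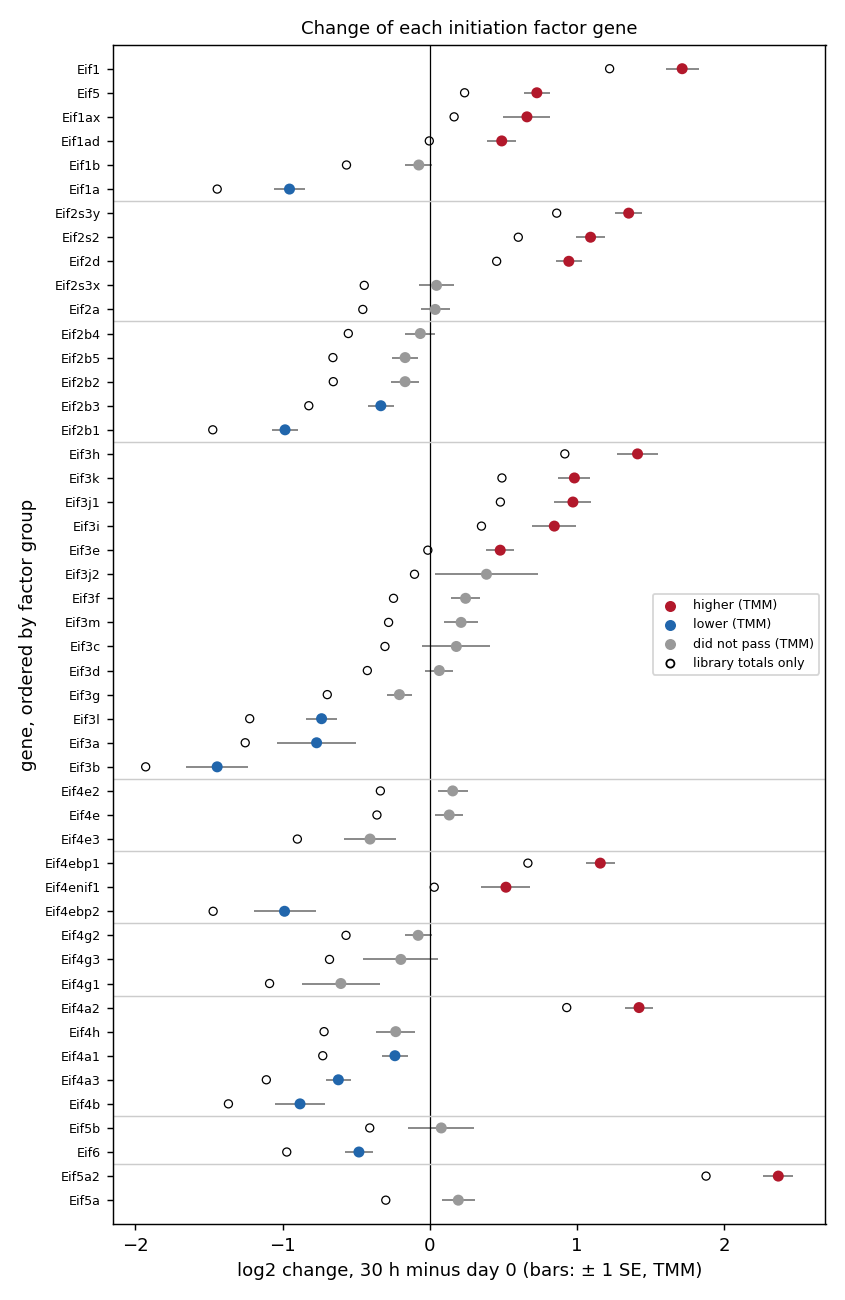
Log2 change of each gene with TMM scaling (filled points, bars ± 1 SE, coloured by the edgeR call) and with scaling by totals only (open circles). The open circles lie to the left of the filled points throughout, and 12 of the 16 genes called higher with TMM are still called higher with totals only.

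Of the 6 genes grouped under start codon selection, 4 rose and 1 fell (66.7% and 16.7%, against 34.4% and 40.1% of all genes). Eif1, the gatekeeper of start codon choice (chromosome 11, 100319885 to 100322096), stood at 105, 109 and 110 CPM at day 0 and at 338, 323 and 402 CPM at 30 h. All 30 h libraries lay above all day 0 libraries, a 3.28-fold rise (log2 change 1.71, SE 0.11, edgeR adjusted p = 6.14e-06). Of the 50-base words of Eif1, Eif2s2 and Eif3h, 19.2%, 10.2% and 20.3% occur in transcripts of other genes, so their counts carry that uncertainty. Eif1b, a paralogue with 81.3% identical coding bases, had 102, 101 and 103 CPM and then 95.0, 92.7 and 104 CPM. These values overlapped, and the gene did not pass (log2 change -0.07, edgeR adjusted p = 0.476).

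The genes of eIF1A, which works with eIF1 in scanning, moved in opposite directions. Eif1a (chromosome 18, 46597701 to 46616456) fell from 166, 154 and 162 CPM to 76.3, 81.7 and 91.4 CPM (1.94-fold lower, edgeR adjusted p = 7.13e-05). Eif1ax, the X-linked gene, rose from 322, 298 and 316 CPM to 417, 438 and 625 CPM (1.58-fold, edgeR adjusted p = 0.00594). The groups were separate for both genes, and 30 h replicate 3 was the highest 30 h library for each. Eif1ax lost its call under scaling by totals (log2 change 0.17, edgeR adjusted p = 0.333) and after removal of each library's GC trend (0.23, adjusted p = 0.209). Eif5, which makes eIF2 hydrolyse its GTP, rose from 411, 399 and 421 CPM to 696, 648 and 693 CPM, a 1.66-fold rise (edgeR adjusted p = 0.000132) that was called in every alternative. Eif1ad, which encodes a protein with an eIF1A-like domain, was 1.40-fold higher, with a log2 change of -0.0033 under scaling by totals only.

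Among eIF2 and the other carriers of the initiator tRNA, 3 of 5 genes rose (60.0%) and none fell. Over all genes tested, 34.4% rose and 40.1% fell. Eif2s2, the beta subunit of eIF2 (chromosome 2, 154871410 to 154892935), went from 136, 124 and 128 CPM to 264, 268 and 295 CPM. The groups were far apart, and the rise was 2.13-fold (log2 change 1.09, SE 0.10, edgeR adjusted p = 2.33e-05). Eif2d, which can deliver initiator tRNA without eIF2 and acts in ribosome recycling, rose 1.92-fold, and Eif2a, a separate tRNA-binding factor, stood at 168, 161 and 178 CPM and then at 170.0, 163 and 187 CPM, overlapping and without passing (edgeR adjusted p = 0.748).

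The gamma subunit of eIF2, which binds GTP and the tRNA, has an X-linked and a Y-linked gene. Eif2s3y rose from 29.2, 29.5 and 30.4 CPM to 79.0, 76.1 and 72.0 CPM (2.55-fold, edgeR adjusted p = 6.69e-06). Eif2s3x stood at 13.1, 12.9 and 13.3 CPM and then at 15, 12.3 and 13.2 CPM, overlapping values that did not pass the test (edgeR adjusted p = 0.74). Of the 50-base words in the transcripts of Eif2s3x, 34.6% also occur in transcripts of other annotated genes, so the counting of its reads is uncertain, whereas Eif2s3y shares none. Other sex-linked genes moved in the same libraries: Ddx3y rose 2.15-fold and Uty 1.95-fold, both Y-linked, Kdm5d did not pass (20.7 ± 0.421 and 24.5 ± 3.55 CPM), and the X-linked Xist rose from 9.97 ± 1.56 to 115 ± 9.73 CPM. Both Y-linked transcripts and Xist were present in each group, and the part of embryo sex in the change of Eif2s3y was not tested.

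The exchange factor eIF2B, which recharges eIF2, had 2 of 5 subunit genes lower and none higher. The share lower, 40.0%, was near the 40.1% of all genes, of which 34.4% were higher. Eif2b1, the alpha subunit (chromosome 5, 124570213 to 124579131), fell from 167, 159 and 165 CPM to 81.5, 79.2 and 87.4 CPM, with no overlap (log2 change -0.98, SE 0.09, edgeR adjusted p = 3.13e-05). Eif2b3, the gamma subunit, was 1.26-fold lower, but without day 0 replicate 3 its adjusted p was 0.0504, and with the length trend removed its log2 change was -0.0090 (adjusted p = 0.938). Eif2b5, the catalytic epsilon subunit and the most abundant of the group per kb, had 210, 205 and 212 CPM and then 191, 180 and 188 CPM. Its groups did not overlap, yet the log2 change of -0.17 did not pass (edgeR adjusted p = 0.109), except without 30 h replicate 3 (adjusted p = 0.0155) and with 3 other settings of scaling or filter. Eif2b2 and Eif2b4 had log2 changes of -0.17 and -0.06 and did not pass. All 5 genes were lower with scaling by totals only, as were 54.4% of all genes. With the GC trend removed Eif2b4 was higher (log2 change 0.43), and Eif2b2 and Eif2b5 had log2 changes of 0.20 and 0.12 without passing.

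eIF3 is the largest initiation factor, which binds the small subunit and bridges it to eIF4G. Of its 14 genes, 5 were higher, 3 lower and 6 not called. The share higher, 35.7%, was near the 34.4% of all genes, and the share lower was 21.4% against 40.1%. Eif3h (chromosome 15, 51786558 to 51865523), a subunit of the octamer that forms the body of the complex, rose from 360, 316 and 357 CPM to 834, 816 and 1098 CPM. Every 30 h library exceeded every day 0 library (log2 change 1.41, SE 0.14, edgeR adjusted p = 4.83e-05). Eif3k, another octamer subunit, rose 1.98-fold, Eif3j1, a loosely bound subunit, 1.96-fold, and Eif3i, of the peripheral module, 1.80-fold. Eif3e was 1.39-fold higher with TMM, but the sign turned under scaling by totals (log2 change -0.01) and after removal of the GC trend (-0.18), without passing in either.

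Eif3b (chromosome 5, 140419328 to 140443360), the scaffold of the peripheral module that also holds Eif3g and Eif3i, fell from 892, 900 and 868 CPM to 422, 333 and 223 CPM. It was the largest fall of the 48 genes tested (log2 change -1.44, SE 0.21, edgeR adjusted p = 0.000393) and was called in every alternative, and 30 h replicate 3 was the lowest library. Eif3a, the large subunit that anchors the complex, went from 514, 548 and 528 CPM to 433, 316 and 185 CPM. No 30 h library reached the day 0 range, and the 30 h libraries were spread widely (log2 change -0.77, SE 0.27, edgeR adjusted p = 0.0292). The edgeR adjusted p of Eif3a was 0.0554, 0.0732 and 0.0630 when day 0 replicate 1, 2 or 3 was left out and 0.0739 without 30 h replicate 2. Without 30 h replicate 3 its log2 change was -0.50 (adjusted p = 0.00515), and with the length trend removed it was -0.42 and did not pass (adjusted p = 0.0609). Eif3l, an octamer subunit, was 1.66-fold lower.

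The ratio of Eif3h counts to Eif3b counts was 0.404, 0.351 and 0.411 at day 0, and at 30 h it was 1.98, 2.45 and 4.92. This ratio within a library does not depend on scaling. The 2 genes were taken as the largest rise and the largest fall of eIF3, so a change in their ratio follows from that choice. Per kb of exon, the mean level of Eif3b was 265 CPM at day 0 and 97.4 CPM at 30 h, and that of Eif3h 214 and 568 CPM, so their order was reversed. The remaining genes with levels above 1 CPM, Eif3c, Eif3d, Eif3f, Eif3g and Eif3m, had log2 changes from -0.21 to 0.24. Eif3f and Eif3g came near the threshold (adjusted p = 0.0512 and 0.0542), and without 30 h replicate 3 Eif3f and Eif3c were higher (log2 change 0.29 and 0.42) and Eif3g lower (-0.20). Without 30 h replicate 1, Eif3m was higher (0.35, adjusted p = 0.0436). Eif3j2 stood at 0.680 ± 0.246 and 0.891 ± 0.178 CPM, and since its coding bases aligned to Eif3j1 were 100% identical and 90.8% of its words were shared, reads of this pair cannot be assigned with certainty.

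**Figure D3:**
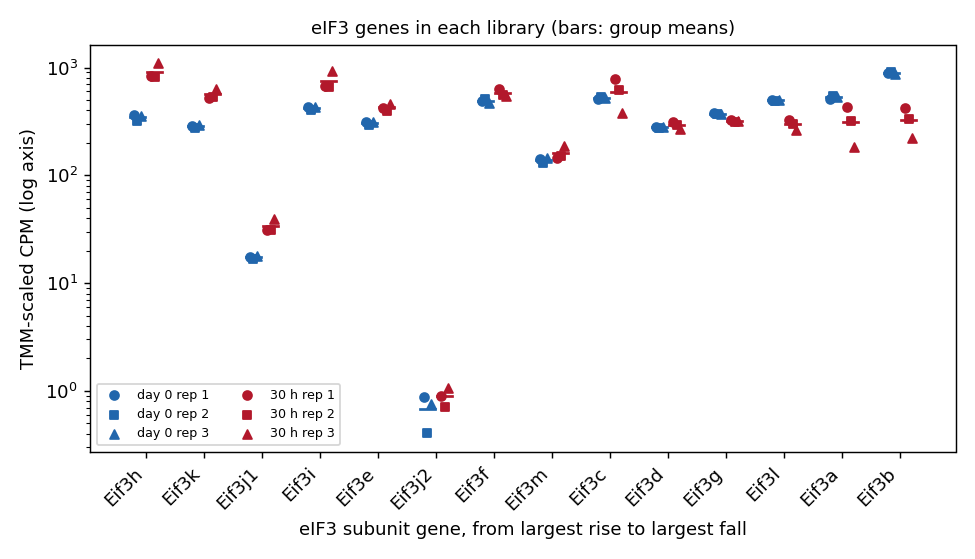
TMM-scaled CPM (log axis) of the 14 eIF3 genes in each library, with bars at the group means, from the largest rise to the largest fall. Eif3h and Eif3b, taken as the ends of this order, exchange places between the groups. The 30 h replicate 3 (triangles) is the highest 30 h library for Eif3h and the lowest for Eif3a, Eif3b and Eif3c.

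In the cap-binding complex, no gene of the cap binders or of the eIF4G scaffolds passed the test with TMM, against 74.5% of all genes. Eif4e, the cap-binding protein that limits recruitment, had 137, 132 and 138 CPM at day 0 and 140, 144 and 162 CPM at 30 h (log2 change 0.13, SE 0.10, edgeR adjusted p = 0.239). The 30 h values were slightly above the day 0 values without passing. Eif4e2, a paralogue that binds caps without eIF4G, stayed near 172 ± 1.57 and 191 ± 19.3 CPM (adjusted p = 0.198), and Eif4e3, the scarcest of the 3 tested, was at 7.80, 8.57 and 9.13 CPM and then at 5.82, 5.42 and 8.06 CPM (adjusted p = 0.0644, but 0.00488 without 30 h replicate 3).

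Eif4g1, the main scaffold, had 779, 863 and 841 CPM and then 741, 570 and 322 CPM. The groups did not overlap, but 30 h replicate 3 lay far below replicate 1, and the log2 change of -0.60 (SE 0.26) did not pass (edgeR adjusted p = 0.0672). It passed without 30 h replicate 1 (-0.84, adjusted p = 0.00572) and without 30 h replicate 3 (-0.33, adjusted p = 0.0153), as in 6 other alternatives. Eif4g2, a scaffold that lacks the eIF4E-binding part, was the most abundant of the scaffolds, at 2063, 2015 and 2122 CPM and then 2069, 1901 and 1899 CPM. These values overlapped (adjusted p = 0.45). Eif4g3, the third scaffold gene, had 62.6, 80.8 and 72.5 CPM and then 82.7, 67.1 and 38.3 CPM, with no call (adjusted p = 0.503).

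The group of eIF4A helicases and cofactors had 1 gene higher and 3 lower of 5. Eif4a2 (chromosome 16, 23107444 to 23114136), a helicase that unwinds the start of the messenger RNA, rose from 80.1, 82.3 and 84.5 CPM to 209, 213 and 239 CPM. The groups were far apart (log2 change 1.42, SE 0.10, edgeR adjusted p = 6.83e-06). Eif4a1, its paralogue with the same enzyme activity, went from between 129 and 136 CPM in the 3 day 0 libraries to between 111 and 115 CPM at 30 h. Its log2 change of -0.24 passed narrowly (edgeR adjusted p = 0.0344) and did not in 11 of 18 alternatives, among them the omission of each library but 30 h replicate 3, with adjusted p from 0.0766 to 0.145. Of the words of Eif4a1, 24.8% are shared with other genes, so its count is uncertain, and exons of Eif4a2 overlap Rfc4 on the opposite strand.

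Eif4b, which stimulates the helicase, fell from 718, 733 and 716 CPM to 477, 404 and 295 CPM (1.84-fold, edgeR adjusted p = 0.00166), with no overlap between the groups. Eif4h, a related cofactor, was at 613, 599.9 and 595 CPM and then at 587, 535 and 418 CPM, with no call (adjusted p = 0.146). Eif4a3, which by name belongs here but serves the exon junction complex, was 1.54-fold lower.

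All 3 tested genes of the eIF4E regulators passed, 2 higher and 1 lower (66.7% and 33.3%, against 34.4% and 40.1% of all genes). Eif4ebp1 (chromosome 8, 27260329 to 27276674), whose product sequesters eIF4E until mTORC1 phosphorylates it, rose from 92.2, 91.3 and 89.1 CPM to 196, 190.5 and 222 CPM. All 30 h values were above day 0 (log2 change 1.16, SE 0.10, edgeR adjusted p = 2.01e-05). Eif4ebp2 (chromosome 10, 61428491 to 61452661), which encodes a protein of the same function, fell from 327, 347 and 332 CPM to 215, 179 and 114 CPM. It too was separate between groups (log2 change -0.99, SE 0.21, edgeR adjusted p = 0.0031), and 30 h replicate 3 was the lowest. Eif4enif1, the shuttling partner that carries eIF4E into the nucleus, went from 93.7, 101 and 100.1 CPM to 173, 141 and 107 CPM. This 1.43-fold rise passed (edgeR adjusted p = 0.0218), but with day 0 replicate 1, 2 or 3 left out the adjusted p was 0.0822, 0.0648 and 0.0643, and 0.0606 without 30 h replicate 2. Under scaling by totals the log2 change was 0.03.

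In subunit joining, Eif6, which keeps free large subunits apart from small ones, fell from 349, 320 and 317 CPM to 228, 233 and 245 CPM. The groups were separate (1.40-fold lower, edgeR adjusted p = 0.00166), whereas removal of the GC trend gave a log2 change of 0.13 that did not pass. Eif5b, the GTPase of subunit joining, had 157, 177 and 177 CPM and then 238, 181 and 120 CPM, spanning the day 0 values (adjusted p = 0.766), and it passed as higher once 30 h replicate 3 was left out (log2 change 0.30, adjusted p = 0.0343) or the length trend was removed (0.44, adjusted p = 0.0189).

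The eIF5A genes are named as initiation factors, although their product, which carries the modified lysine hypusine, acts mainly in elongation. Eif5a2 (chromosome 3, 28781276 to 28798846) rose from 16, 15.9 and 15.3 CPM to 86.7, 75.8 and 81.2 CPM. This was the largest rise of the 48 genes tested (log2 change 2.37, SE 0.10, edgeR adjusted p = 1.02e-06). Eif5a stood at 1986, 1866 and 1936 CPM and then at 2073, 2032 and 2515 CPM, not overlapping but without a call (log2 change 0.19, adjusted p = 0.148). The call of Eif5a changed with the processing, being lower with totals (-0.30, edgeR adjusted p = 0.0259) and higher with the GC trend (0.57, adjusted p = 0.00904) or the length trend (0.27, adjusted p = 0.0392) removed. Eif5a remained far more abundant, at 928 CPM per kb of exon at 30 h against 16.2 for Eif5a2. It also had the highest level per kb of all 50 genes in both groups.

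Ratios of paralogous genes were compared within each library, as counts per kb of exon, since such ratios do not depend on library scaling. Of 11 pairs, 9 had ratios that did not overlap between day 0 and 30 h, 6 with a higher and 3 with a lower ratio. Among single genes, the levels of 79.7% of all genes tested did not overlap, and no share over other gene pairs was taken. Each of these 9 had p = 0.1 by exact permutation (two-sided), the smallest that 3 against 3 can give, and 0.122 adjusted over the 11 pairs, so none could pass. In 3 pairs the genes were called in opposite directions, Eif1ax and Eif1a, Eif4a2 and Eif4a1, and Eif4ebp1 and Eif4ebp2.

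Eif4ebp2 to Eif4ebp1 went from 1.35, 1.44 and 1.41 to 0.417, 0.356 and 0.194, a 4.57-fold lower ratio. Per kb of exon, the more abundant gene of the pair was Eif4ebp2 at day 0 and Eif4ebp1 at 30 h. In counts, Eif4ebp2 was still above Eif4ebp1 in 30 h replicate 1 (4360 against 3965). For Eif4a2 to Eif4a1 the ratio went from 0.503, 0.497 and 0.506 to 1.5, 1.57 and 1.69, 3.15-fold higher, and for Eif1b to Eif1 from 1.83, 1.73 and 1.74 to 0.525, 0.536 and 0.481, 3.44-fold lower. In both of these pairs the order per kb was also reversed in all libraries. For Eif1b and Eif1 the reversal rests on the division by exon length, since in counts Eif1 was above Eif1b in every library. At day 0 the counts were 3698, 3786 and 3621 for Eif1 and 3625, 3516 and 3385 for Eif1b. Eif1ax to Eif1a went from 1.53, 1.53 and 1.54 to 4.33, 4.24 and 5.41, and Eif2s3y to Eif2s3x from 2.03, 2.09 and 2.10 to 4.81, 5.67 and 4.98. Eif5a2 to Eif5a rose 4.52-fold but reached at most 0.0198.

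The smaller differences were Eif4g2 to Eif4g1 (1.52-fold higher, log2 0.60, and 0.29 without 30 h replicate 3), Eif4g3 to Eif4g1 (1.34-fold higher) and Eif4e3 to Eif4e (1.46-fold lower). Eif4e2 to Eif4e was 1.01 and 1.03 in the means, overlapping (exact permutation p = 0.4). Eif3j2 to Eif3j1 overlapped as well (exact permutation p = 0.3).

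**Figure D4:**
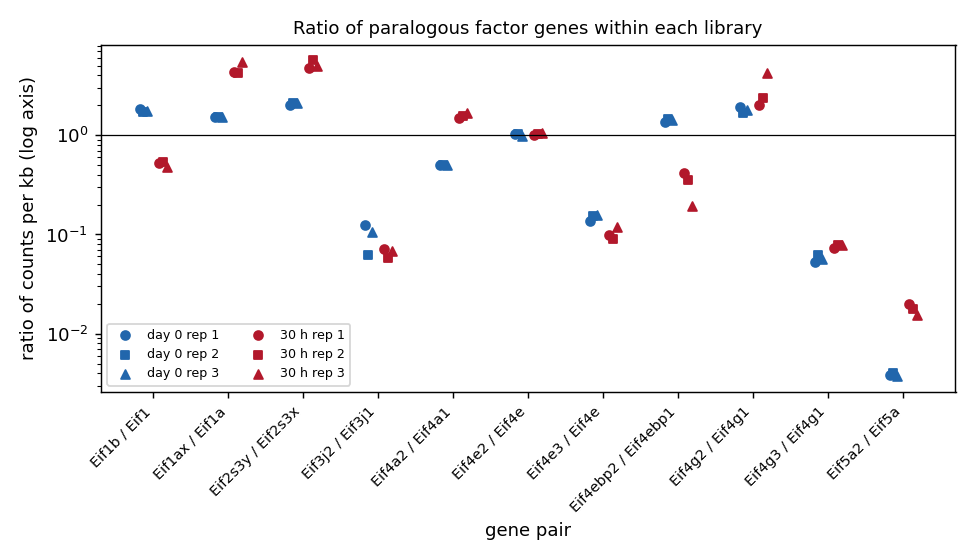
Ratio of counts per kb (log axis) for 11 pairs of paralogous genes in each library, with a line at a ratio of 1. Eif1b to Eif1, Eif4a2 to Eif4a1 and Eif4ebp2 to Eif4ebp1 cross that line between day 0 (blue) and 30 h (red). Eif4e2 to Eif4e stays on the line. The crossing of Eif1b to Eif1, and that of Eif4ebp2 to Eif4ebp1 in 30 h replicate 1, depends on the division by exon length.

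Among 17 partners of initiation, 5 rose, 6 fell and 6 did not pass. Mknk1 and Ddx3x had the largest rise and fall, and the other partners named were picked after their values were seen. Mknk1, a kinase that phosphorylates eIF4E, rose from 41.5 ± 2.03 to 136 ± 13.1 CPM (edgeR adjusted p = 5.01e-06), while Mknk2 was at 287 ± 7.54 and 218 ± 61.1 CPM with no call (adjusted p = 0.0943). Paip2, an inhibitor of poly(A)-binding protein, rose 1.97-fold. The RNA helicase genes Ddx3x and Dhx29, which help ribosomes through structured leaders, fell by 1.28 and 1.08 on the log2 scale (Ddx3x from 588 ± 17.1 to 242 ± 71.8 CPM), and Pdcd4, an inhibitor of eIF4A, was 1.53-fold lower. Among 11 genes of elongation and termination, 2 rose and 3 fell. Eef1a1, the carrier of aminoacyl-tRNA, rose 2.46-fold (edgeR adjusted p = 8.42e-05) and its paralogue Eef1a2 fell from 4.23 ± 0.417 to 0.744 ± 0.353 CPM. The median log2 change was -0.05 for the partners and -0.11 for elongation and termination, beside -0.09 for all genes. With scaling by totals only, 3 partners were higher and 9 lower, and 2 and 8 of the elongation and termination genes. With TMM the shares higher and lower were 29.4% and 35.3% of the partners and 18.2% and 27.3% of the elongation and termination genes. Of all genes, 34.4% were higher and 40.1% lower with TMM, and 22.3% and 54.4% with totals only.

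The 16 genes that rose had a median GC content of 45.1% in their longest transcript and the 11 that fell of 49.8%. Across the 48 genes the log2 change had a Spearman correlation of -0.40 with GC content and of -0.01 with exon length, against -0.21 and -0.08 over 14363 protein-coding genes. Of the 16 that rose, 12 were higher in 30 h replicate 3 than in 30 h replicate 1. Of the 11 that fell, 7 were lower there, as were 13 of the 21 that did not pass. Over the 48 genes the log2 change had a Spearman correlation of 0.47 with the log2 ratio of 30 h replicate 3 to 30 h replicate 1. It was -0.03 over the 14363 protein-coding genes. The log2 change itself includes both of these libraries. The part of GC content and of transcript length in the changes was examined only by removing each trend: with the GC trend removed 18 genes were higher and 11 lower (37.9% and 36.9% of all genes), and with the length trend removed 26 and 9 (39.4% and 37.1% of all genes).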

How the data were processed

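The authors deposited a table of raw counts for each library. Per the submitters' processing notes, cutadapt 1.13, STAR, HTSeq 0.6.1p1, DESeq2 and build mm10 were used, and their settings and any use of strand are not given in the sources used here. Exons of 11 of the 50 genes overlap a gene on the opposite strand, whose reads may not be separated. For 9 genes over 10% of 50-base transcript words occur in other genes.

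Of 54232 IDs, 54165 matched GENCODE M21. Genes were kept by filterByExpr (16150) and scaled by TMM. Genes were tested by robust quasi-likelihood fits in edgeR 4.0.16 under R 4.3.3. The p-values were adjusted over all of them by Benjamini-Hochberg, with standard errors derived from F. The steps were also run on simulated counts with equal spread in both groups. That setting does not test the unequal spread or the scaling differences of these data. The biological coefficient of variation was 5.28% at day 0 and 20.5% at 30 h, so the 30 h libraries limit the precision. Paralogue ratios used a pseudocount of 0.5 counts and scipy 1.17.1. Replicates of a group differed beyond sampling noise. Chi-square per degree of freedom was 4.29 to 5.98 for pairs of day 0 libraries. At 30 h it was 12.1 for replicates 1 and 2, 55.1 for replicates 2 and 3, and 99.8 for replicates 1 and 3. Intervals and floors cover counting error only.

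Alternatives were 4 scalings, 2 filters, DESeq2 1.42.0, limma-trend (limma 3.58.1), the glmTreat test at 1.5-fold, a block on replicate number, GC trend removal, each library left out and, added after seeing the data, removal of the trend with transcript length. Named genes were the largest rise and fall and the most abundant gene per kb in each group, a list of controlling factors, and separated pairs. The members and lists were chosen with earlier results of these data known.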

Additional observations from a re-analysis of the deposited data

How the results depend on the processing

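Of the 16 higher and 11 lower genes, 12 and 5 kept their call in all 18 alternatives, a count that was not made over all genes. Counts of initiation factor genes under scaling by totals were 12 higher and 29 lower (22.3% and 54.4% of all genes). They were 12 and 5 in the test against a 1.5-fold change (23.6% and 30.2%) and 26 and 9 with the length trend removed (39.4% and 37.1%). When 1 library was left out, from 15 to 19 were higher and from 8 to 15 lower. Those omissions gave 5041 to 6233 higher and 5976 to 7008 lower among all genes, of 16355 to 16908 tested. Over all genes 3601 were higher with scaling by totals only, and 4214 lower of those with a mean of at least 5 CPM. Under scaling by totals, which moved the median of all genes to -0.58, the sign turned for 13 genes, Eif1ad (-0.0033), Eif2s3x (-0.45), Eif2a (-0.45), Eif3e (-0.013), Eif3f (-0.25), Eif3m (-0.28), Eif3d (-0.42), Eif4e2 (-0.34), Eif4e (-0.36), Eif5a (-0.30), Eif3j2 (-0.10), Eif3c (-0.30) and Eif5b (-0.41). With the GC trend removed it turned for 15 genes, Eif2a (-0.37), Eif2b4 (0.43), Eif3e (-0.18), Eif3m (-0.28), Eif6 (0.13) and, with no call in either, Eif1b, Eif2s3x, Eif2b5, Eif2b2, Eif3j2, Eif3g, Eif4e, Eif4g3, Eif4h and Eif5b. With the length trend removed it turned for 5, Eif4g2 (0.33), Eif4a1 (0.051), Eif2b4 (0.07), Eif4g3 (0.16) and Eif4h (0.04); the cause was not tested. Under upper quartile scaling, either filter or the omission of day 0 replicate 2 or 30 h replicate 1 or 3, it turned for 1 to 4 genes each, none called in either fit. The deviations of same-numbered libraries had correlations of -0.11, 0.10 and -0.03, and those of unlike-numbered libraries ran from -0.11 to 0.14. With so few libraries these values cannot decide whether the numbers pair them. With the replicate number as a block 16 genes were higher and 11 lower, against 5254 and 6277 of all 16150 genes tested. In that setting Eif4a1 no longer passed (edgeR adjusted p = 0.0917) and Eif4g1 did (log2 change -0.68, edgeR adjusted p = 0.0379). The log2 difference of -2.19 for the ratio of Eif4ebp2 to Eif4ebp1 is the same with and without the block by construction.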
